A study of Homo sapiens with 13 samples.

Results

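Heat shock proteins of the cytosol and the mitochondrion were followed in myeloma cells in which the transcription factor IRF4 was lowered by an inducible hairpin. The 8 genes named for this description were HSP90AA1, HSP90AB1, HSPA8, HSPH1 and HSPB1 of the cytosol and HSPA9, HSPD1 and HSPE1 of the mitochondrion, found by gene symbol in the array annotation with older symbols updated. Of these 8 genes, 4 had a feature among the 4604 named genes of the array, and 3 of the 4 (HSP90AA1, HSP90AB1 and HSPA9) were measured on enough arrays to be tested among 4728 genes and unnamed features. HSPD1 had values on 4 of 13 arrays and was not tested. No feature was matched to HSPA8, HSPE1, HSPH1 or HSPB1, which were not analysed here.

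Each array was a spotted cDNA array, the Lymphochip, on which a culture with an IRF4 hairpin, labelled with Cy5, was set against a culture with a luciferase hairpin (shluc), labelled with Cy3. All values are log2 ratios of the IRF4 hairpin culture over the control culture, centred on the median of each array unless said otherwise. Thus 0 means the median ratio of that array, and -1 means a ratio lower than that by a factor of 2. The medians removed lay between -0.158 and 0.282. Percentages of control were taken from the centred ratios, so they too are relative to the median feature. All cultures were established myeloma lines (KMS12, H929 or SKMM1), and both hairpins of an array were treated alike, so that doxycycline itself was present in both channels. KMS12 was sampled in 3 culture series, named 1332, 1332b and 2046 after the hairpin label. The 3 uninduced KMS12 arrays were untreated (day 0), the 3 arrays at days 2-3 were series 1332 at day 3 and series 1332b and 2046 at day 2, and the 3 arrays at days 4-5 were series 1332 at day 5 and the other series at day 4, all under 20 ng/ml doxycycline. Series 1332 was also sampled at day 7 on 1 array. The other lines carried hairpin 2046 and were sampled at day 4 of the same dose, H929 on a pair of repeat arrays (n = 2) and SKMM1 on a single array, neither with an uninduced array of its own. Within each window series 1332b and 2046 share a day, whereas for series 1332 day and series cannot be told apart. Nothing in the labels says that series or repeats were separate infections, so the p-values speak only of the spread between arrays, which may be technical.

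Heat shock proteins are molecular chaperones, which bind unfolded or partly folded proteins and help them reach or keep their shape. Cytosolic HSP90 exists as a form that stress induces strongly, HSP90AA1, and a form that is made steadily, HSP90AB1; both mature kinases, receptors and transcription factors. HSPA9 is the HSP70 of the mitochondrial matrix, which pulls imported proteins through the inner membrane, and HSPD1 with its lid HSPE1 forms the chamber in which they fold. Many of these genes are switched on by heat shock factors that bind inverted repeats of a short motif in their promoters. Plasma cells and myeloma cells make large amounts of secreted antibody and are known to rely heavily on protein folding.

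To show the promoters of the genes that the tests could cover, the stretch with the most heat shock element pairs was taken for HSP90AA1, HSP90AB1 and HSPA9 from RefSeq promoter windows (GRCh38.p14, 250 bases before to 50 after an annotated start). The capitals mark the pair TTCNNGAA, which reads the same on both strands. All 3 stretches are 140 bases long and are written in the direction of the gene: HSP90AA1 at chr14:102087065-102087204, minus strand; HSP90AB1 at chr6:44247739-44247878, plus strand; HSPA9 at chr5:138575398-138575537, minus strand.
HSP90AA1: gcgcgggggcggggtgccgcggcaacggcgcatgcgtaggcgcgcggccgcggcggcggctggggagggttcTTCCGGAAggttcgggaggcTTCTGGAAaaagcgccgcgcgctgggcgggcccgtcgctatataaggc
HSP90AB1: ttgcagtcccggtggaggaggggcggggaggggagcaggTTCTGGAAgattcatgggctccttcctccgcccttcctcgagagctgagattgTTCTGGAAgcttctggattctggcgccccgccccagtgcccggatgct
HSPA9: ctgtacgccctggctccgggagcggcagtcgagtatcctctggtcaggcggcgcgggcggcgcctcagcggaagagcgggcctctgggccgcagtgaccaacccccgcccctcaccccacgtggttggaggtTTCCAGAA

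In HSP90AA1 the pairs began 88 and 68 bases before the start, in HSP90AB1 165 and 112 bases before it, and in HSPA9 the single pair lay across the start, beginning 4 bases before it. HSP90AA1 has 2 annotated windows and HSP90AB1 has 3, and in each gene 1 window held the pair. All 8 genes had a window, 12 windows in all, and 5 of the 12 held the pair (HSPA9, HSPD1, HSPA8, HSP90AA1 and HSP90AB1), against 7.74% of 35116 windows of the same length. The longer triple TTCNNGAANNTTC, searched on both strands and always containing the pair, was in 4 of the 12 windows against 0.49% of all windows. The core of the interferon-stimulated response element that IRF factors can bind, GAAANNGAAA, searched on both strands, was in 0 of the 12 windows against 3.57% of all. The E-box CACGTG was in 3 of the 12 windows (HSPA9, HSPD1 and HSPE1) against 7.26%. The windows of HSPD1 and HSPE1 that held it overlap, so the same site may be counted in both. These matches describe letters in these windows and nothing about binding, and the motifs were picked with the expression values known.

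As a check of the hairpins, the IRF4 ratio lay between 0.13 and 0.24 on the uninduced arrays, between -1.78 and -1.03 at days 2-3, between -0.75 and -0.59 at days 4-5, at -0.76 on day 7, between -1.96 and -1.79 in H929 and at -2.02 in SKMM1. Between 7140 and 14228 of 15246 features had a value on an array. The uninduced array of series 2046 stood apart: features measured on all 13 arrays had an uncentred median of 0.46 there, against -0.18 to 0.08 on the other arrays. A ratio shows no absolute level, so the plasma cell identity of the lines could not be checked by level. Among markers of other cell types at days 2-3 against uninduced, 9 of 9 measured B cell genes lay above 0 (median 0.57), 7 of 7 T cell genes (median 0.37), 5 of 5 erythroid or stromal genes (median 0.50) and 1 of 2 myeloid genes, while 8 of 10 plasma cell genes other than IRF4 lay below 0 (median -0.52). Of all genes tested, 46.2% lay below 0 in that comparison. From the uninduced arrays to days 2-3, the list median of an array went from a range of -0.43 to -0.18 to a range of 0.05 to 0.52 for the B cell genes, from -0.17 to -0.08 to -0.09 to 0.48 for the T cell genes, from -0.34 to 0.13 to 0.20 to 0.49 for the erythroid or stromal genes, from -0.12 to 0.17 to -0.30 to 0.18 for the myeloid genes and from -0.01 to 0.15 to -0.66 to -0.30 for the plasma cell genes. None of these genes passed in KMS12, and their part in the heat shock values was not tested.

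HSP90AA1, the stress-inducible cytosolic HSP90, had the widest range of the 3 tested genes. On the uninduced arrays its log2 ratio was 0.49 in series 1332, -0.10 in 1332b and 1.35 in 2046, or 140%, 93.4% and 256% of the control culture. The arrays of days 2-3 gave -2.26, -2.84 and -0.48 for these series, or 20.9%, 13.9% and 71.8% of control. At days 4-5 it was 84.5%, 115% and 72% of control, and the day 7 array of series 1332 gave 189%. All 3 arrays at days 2-3 thus lay below every uninduced array, whereas the arrays at days 4-5 overlapped the uninduced ones.

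Read within each series, HSP90AA1 at days 2-3 was below its own uninduced array by a factor of 6.7 in series 1332, 6.7 in 1332b and 3.56 in 2046. The later course differed from series to series. From days 2-3 to days 4-5 the ratio went up by 2.01 on the log2 scale in 1332 and by 3.05 in 1332b, but by 0.004 in 2046. Relative to its own uninduced array, series 2046 therefore still stood at -1.83 at day 4, series 1332 at -0.73 at day 5 and series 1332b at 0.30 at day 4. On day 7 series 1332 stood at 0.43, while IRF4 in the same cells remained at 59% of control. The differences in series 2046 rest on an uninduced ratio of 1.354, from the array that stood apart above. Before that array was subtracted, the HSP90AA1 ratio in series 2046 was -0.478 at day 2 and -0.475 at day 4.

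**Figure D1:**
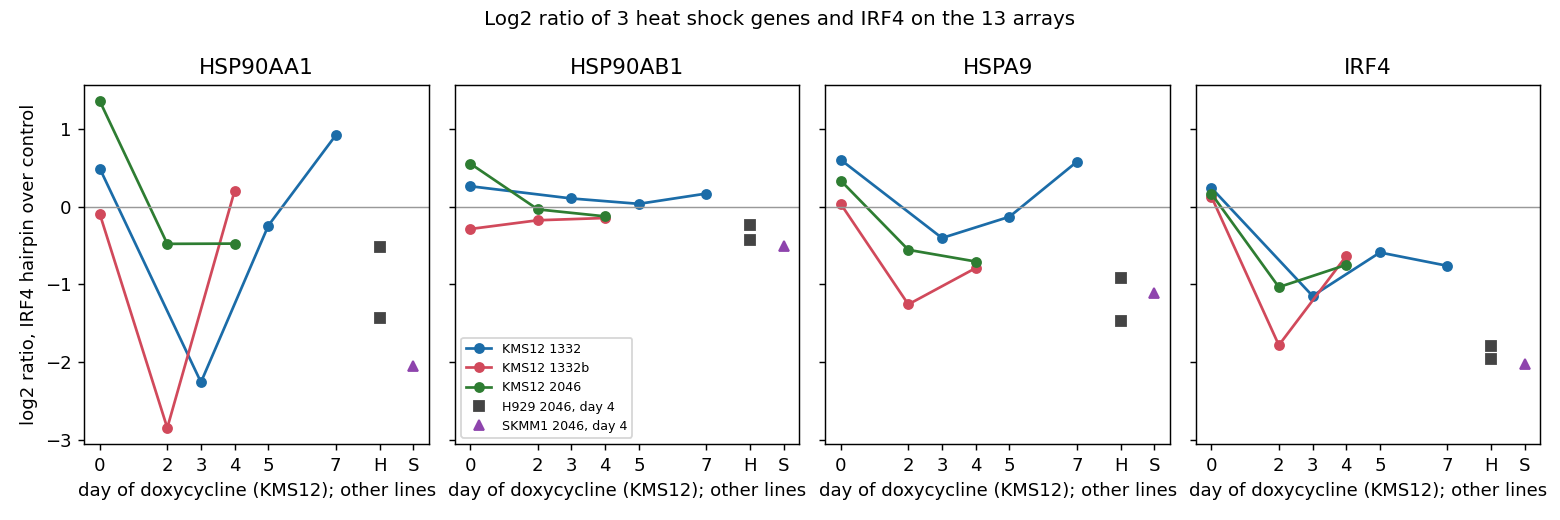
Log2 ratio of the IRF4 hairpin culture over the control culture for HSP90AA1, HSP90AB1, HSPA9 and IRF4 (vertical axis) by day of doxycycline for the 3 KMS12 series (lines), with the 2 H929 arrays (H, squares) and the SKMM1 array (S, triangle) at day 4; each point is 1 array. HSP90AA1 drops to -2.26 and -2.84 in series 1332 and 1332b at days 2-3 and returns, HSPA9 follows with a smaller drop, and HSP90AB1 stays between -0.50 and 0.55.

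The mean HSP90AA1 ratio was 0.58 ± 0.73 (SD, n = 3) uninduced, -1.86 ± 1.23 (SD, n = 3) at days 2-3 and -0.17 ± 0.35 (SD, n = 3) at days 4-5. In the fit of all arrays, days 2-3 differed from uninduced by -2.44 (SE 0.55, 5.43-fold lower, 3 of 3 arrays lower), which ranked 9 of 4728 from the lowest but did not pass (limma adjusted p = 0.0764). At days 2-3 limma called 0 of 4728 genes, 0% of all, and hence 0 of 3 heat shock genes, although 1222 genes had an unadjusted p under 0.05. Groups that did not overlap, with days 2-3 lower, were found for 16.9% of all genes and for 2 of the 3 heat shock genes, HSP90AA1 and HSPA9. Without the series 2046 array at day 2 the HSP90AA1 difference was -3.13 and passed (limma adjusted p = 0.00275, with 13.8% of all genes called), and without the uninduced array of that series it was -2.05 (adjusted p = 0.233). HSP90AA1 also passed with features measured on all 13 arrays (-2.33, adjusted p = 0.0482), with no centring (-2.64, 0.0407) and when the same arrays were tested against 0 (-1.86, 0.0158), fits that called 7.53%, 7.17% and 19.1% of all genes.

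The 3 cDNA features of HSP90AA1 gave the same course. Their differences between days 2-3 and uninduced were -2.44, -2.34 and -2.54, and the spread between the features of an array ranged from 0.12 to 0.64 with a median of 0.38 over 13 arrays. Their signs were opposed on 2 arrays, the uninduced array of series 1332b and the day 5 array of series 1332, where the ratio was near 0.

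HSP90AB1, the steadily made HSP90, stayed close to its control. Its uninduced ratios were 0.26, -0.29 and 0.55 in series 1332, 1332b and 2046 (120%, 82% and 147% of control). At days 2-3 they were 108%, 88.6% and 97.6% of control, and at days 4-5 103%, 90.4% and 91.7%. The induced arrays lay within the range of the uninduced ones in both windows. Days 2-3 differed from uninduced by -0.21 (SE 0.23, limma adjusted p = 0.565) and days 4-5 by -0.25 (SE 0.23, adjusted p = 0.873). The later difference was -0.07 without the uninduced array of series 2046 and -0.49 without that of series 1332b.

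The 2 features of HSP90AB1 did not always point the same way, with opposite signs on 4 of the 12 arrays that measured both and a spread of up to 0.77. One of them had no value on the uninduced array of series 2046, where the gene's value of 0.55 rests on the other feature alone. That feature, measured on all 13 arrays, differed by -0.19 at days 2-3 and -0.27 at days 4-5, whereas the feature with 2 uninduced values differed by 0.02 and 0.01. Without the uninduced array of series 2046 the gene's difference at days 2-3 was -0.02 (adjusted p = 0.966). HSP90AA1 and HSP90AB1 share much of their coding sequence, so that a spotted cDNA may bind mRNA of both; how far it did was not tested.

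**Figure D2:**
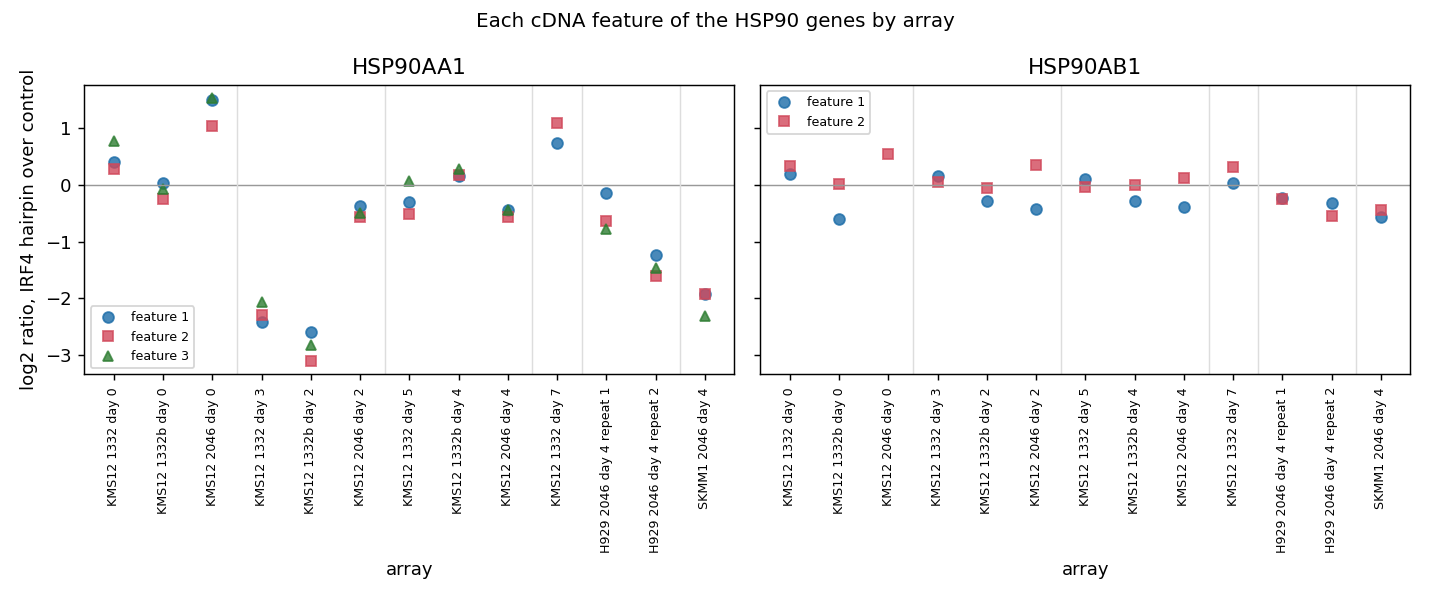
Log2 ratio (vertical axis) of each cDNA feature of HSP90AA1 (3 features) and HSP90AB1 (2 features) on the 13 arrays (horizontal axis; vertical lines part the groups). The HSP90AA1 features lie within 0.64 of each other on every array, and those of HSP90AB1 differ by up to 0.77 and remain between -0.59 and 0.55.

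Set against each other on the same array, the log2 ratio of HSP90AA1 minus that of HSP90AB1 was 0.23, 0.19 and 0.80 uninduced, -2.36, -2.67 and -0.44 at days 2-3, and -0.28, 0.35 and -0.35 at days 4-5, in the order 1332, 1332b and 2046. The groups at days 2-3 and uninduced did not overlap, and their means differed by -2.23. A two-sided exact permutation of the arrays gave p = 0.1, the smallest that 3 against 3 can give. With the arrays paired by series, in a test added after the values were seen, all 3 differences were below 0 and the exact permutation p was 0.25, the smallest that 3 pairs can give. Days 4-5 differed from uninduced by -0.50 (exact permutation p = 0.3, paired 0.5) and from days 2-3 by 1.73 (exact permutation p = 0.1, paired 0.25). With 3 arrays a group neither test can reach the 0.05 threshold.

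HSPA9, the mitochondrial HSP70, was measured by 1 feature on all 13 arrays. Its uninduced ratios were 0.60, 0.03 and 0.33 in series 1332, 1332b and 2046 (152%, 102% and 126% of control). At days 2-3 it stood at 75.6%, 41.9% and 68.1% of control, and at days 4-5 at 91.4%, 57.9% and 61.3%. The day 7 array of series 1332 gave 149%, near the uninduced 152% of that series. In contrast to HSP90AA1, HSPA9 lay below every uninduced array in both windows.

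Relative to the uninduced array of its series, HSPA9 stood at -1.003, -1.29 and -0.89 in the days 2-3 window and at -0.73, -0.82 and -1.04 in the days 4-5 window (log2 differences, series 1332, 1332b and 2046), a narrower range than for HSP90AA1. The mean difference was -1.06 (SE 0.29, 2.08-fold lower) at days 2-3, with a limma adjusted p of 0.0795, and -0.86 (SE 0.29, 1.82-fold lower) at days 4-5, with an adjusted p of 0.758. The HSP90AA1 difference at days 4-5 was -0.75 (SE 0.55, limma adjusted p = 0.844), and -0.37 without the uninduced array of series 2046. In that window 0 of 4728 genes (0%) passed in limma, 282 of them having an unadjusted p under 0.05, and 5.63% of all genes lay below every uninduced array, as did 1 of the 3 heat shock genes, HSPA9. As for HSP90AA1, the early difference of HSPA9 passed without the series 2046 array at day 2 (-1.15, adjusted p = 0.0393), with features measured on all 13 arrays (-0.997, 0.0499), without centring (-1.26, 0.0407) and against 0 (-0.74, 0.0315), the fits whose shares of all genes called are given with HSP90AA1.

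Averaged over both windows, HSP90AA1 differed from uninduced by -1.60 (SE 0.47), HSPA9 by -0.96 (SE 0.25) and HSP90AB1 by -0.23 (SE 0.20). None passed (limma adjusted p = 0.242, 0.242 and 0.559), and neither did any other gene (0 of 4728, or 0%), while 771 had an unadjusted p under 0.05. Over the 3 heat shock genes the median was -1.06 at days 2-3, -0.75 at days 4-5 and -0.96 over both, beside 0.05, 0.02 and 0.03 over all genes tested. The HSP90AB1 value was -0.04 without the uninduced array of series 2046 and -0.46 without that of series 1332b. Without the series 2046 array at day 2, HSP90AA1 passed over both windows (-1.94, adjusted p = 0.0361), as did 1.8% of all genes. Tested against 0, HSP90AA1 (-1.01, 0.0417) and HSPA9 (-0.64, 0.0271) passed, with 9.62% of all genes.

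From days 2-3 to days 4-5, HSP90AA1 was higher by 1.69 (SE 0.55), a difference with a limma adjusted p of 0.197. HSPA9 was higher by 0.20 (SE 0.29, adjusted p = 0.737) and HSP90AB1 lower, at -0.04 (SE 0.23, adjusted p = 0.935). No gene passed between the windows (0 of 4728 by limma, or 0%, while 857 had an unadjusted p under 0.05). Without the series 2046 array at day 2 the HSP90AA1 difference was 2.38 and passed (adjusted p = 0.0108), in a fit that called 7.61% of all genes. The HSPA9 difference turned to -0.06 without the series 1332b array at day 2, to -0.01 without the series 1332 array at day 5 and to -0.18 after quantile normalization, and that of HSP90AB1 to 0.03 without the series 1332 array at day 3.

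Before induction all 3 genes had a mean above 0, with HSP90AA1 at 0.58, HSPA9 at 0.32 and HSP90AB1 at 0.18. None differed from 0 (limma adjusted p = 0.678, 0.668 and 0.768), nor did any gene (0 of 4728, or 0%), while 379 had an unadjusted p under 0.05. These means leaned on single arrays. Without the series 2046 array the mean was 0.20 for HSP90AA1 and -0.01 for HSP90AB1, without the series 1332b array it was 0.92 and 0.41, and without the series 1332 array that of HSPA9 was 0.18. The ratios in H929 and SKMM1 below are set against 0 alone, so that a dye effect particular to a feature stays in them.

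**Figure D3:**
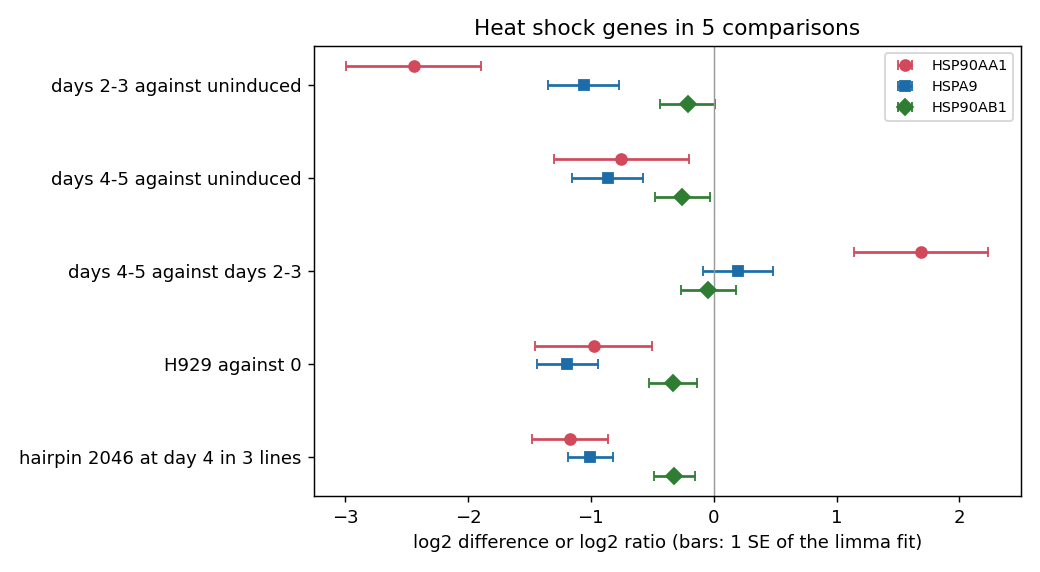
Log2 difference between groups of arrays, or log2 ratio against 0 for the lower pair of comparisons (horizontal axis), of HSP90AA1, HSPA9 and HSP90AB1 in 5 comparisons; bars are 1 SE of the limma fit. HSP90AA1 has the lowest value at days 2-3 (-2.44) and the highest between the windows (1.69), and HSP90AB1 lies between -0.33 and -0.04 throughout.

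In H929 after 4 days of hairpin 2046, all 3 heat shock genes lay below 0 on both repeats, and HSPA9 passed the test. The differences between the 3 genes were not tested. The HSPA9 log2 ratio was -0.92 on repeat 1 and -1.47 on repeat 2, or 53% and 36.1% of control, with a mean of -1.19 ± 0.39 (SD, n = 2). Against 0 this passed (SE 0.25, limma adjusted p = 0.029), 1 of 3 heat shock genes, where 4.23% of 4607 genes were called. The call rested on both arrays and on the spread shared with the other groups: the adjusted p was 0.423 without repeat 2, 0.0784 without repeat 1, 0.0613 with the H929 arrays alone and 0.0816 with no filter on missing values. In the same comparison 7 of 7 T cell genes (median 0.37), 5 of 9 B cell genes (0.10), 4 of 5 erythroid or stromal genes (0.37) and 1 of 2 myeloid genes lay above 0, and 6 of 10 plasma cell genes lay below 0 (median -0.31), with 1 plasma cell gene passing as lower. Of all genes tested, 48.9% lay below 0 there. The part of the marker genes in the HSPA9 value was not tested.

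HSP90AA1 in H929 was -0.52 on repeat 1 and -1.43 on repeat 2 (69.7% and 37% of control), a mean of -0.98 ± 0.65 (SD, n = 2) that did not pass (limma adjusted p = 0.218). HSP90AB1 was -0.23 and -0.43 (85.1% and 74.4%), a mean of -0.33 ± 0.14 (SD, n = 2) with an adjusted p of 0.31. On repeat 2 each of the 3 genes was lower than on repeat 1. Against KMS12 at days 4-5, H929 differed by -0.65 for HSPA9, -0.81 for HSP90AA1 and -0.25 for HSP90AB1 (limma adjusted p = 0.325, 0.512 and 0.632). Without H929 repeat 2 these were -0.37, -0.35 and -0.15, without repeat 1 the HSP90AA1 value was -1.26, and after quantile normalization HSPA9 stood at -0.30 and HSP90AB1 at -0.16. Both H929 arrays lay below every KMS12 array of days 4-5 for all 3 genes, as the arrays measured did for 25.6% of all genes, and limma called 2 of 4607 genes (0.0434%), none of them a heat shock gene. The KMS12 group holds other hairpin labels and day 5 as well, so line, hairpin and day cannot be told apart here. IRF4 differed by -1.22 in the same comparison.

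In SKMM1 the single array gave 24.2% of control for HSP90AA1 (log2 ratio -2.05), 46.3% for HSPA9 (-1.11) and 70.7% for HSP90AB1 (-0.50). With each line as 1 replicate of hairpin 2046 at day 4, HSPA9 was -0.71 in KMS12, -1.19 in H929 and -1.11 in SKMM1, and its mean of -1.003 (SE 0.18, lower in 3 of 3 lines) ranked 12 of 4663 by p. HSP90AA1 was -0.48, -0.98 and -2.05, with a mean of -1.17 (SE 0.31), and HSP90AB1 -0.12, -0.33 and -0.50, with a mean of -0.32 (SE 0.17). None passed (limma adjusted p = 0.27, 0.27 and 0.369), nor did any gene (0 of 4663, or 0%), while 773 had an unadjusted p under 0.05. Without the KMS12 array, HSPA9 (-1.15, adjusted p = 0.0149) and HSP90AA1 (-1.51, 0.0171) passed, in a fit that called 737 genes (17.9%). Without the SKMM1 array HSP90AA1 was -0.73 (adjusted p = 0.782) and HSPA9 -0.95 (0.782).

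Over the 9 induced arrays other than day 7, HSPA9 was below 0 on 9, HSP90AA1 on 8 and HSP90AB1 on 7. A ratio below 0 on every such array was seen for 3.79% of all genes tested. The exception for HSP90AA1 was the day 4 array of series 1332b, at 115% of control. On the day 7 array left out of these counts, each of the genes lay above 0 (HSPA9 0.58, HSP90AA1 0.92 and HSP90AB1 0.17).

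HSPD1, the chamber protein of the mitochondrial matrix, had 1 feature with values on 4 arrays. In series 1332b its ratio was -0.85 uninduced, 0.18 at day 2 and -0.16 at day 4, and in SKMM1 it was 0.52. Unlike HSPA9 on the same arrays, it was not lower at day 2 or day 4 than before induction, and in SKMM1 it lay above its control. With 1 array per condition these values have no replicate check. Features measured on 1 to 9 arrays, as this one was, had an uncentred median of 0.13 in SKMM1, against -0.17 for those measured on all 13. In series 1332b the uncentred median of features on 1 to 9 arrays was -0.05 uninduced, 0.01 at day 2 and 0.11 at day 4.

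Among the 3 tested genes, the profiles over 13 arrays ran together, as a description over arrays that share hairpins and series. Pearson's r was 0.75 between HSPA9 and HSP90AA1 (Spearman's rho 0.77), 0.78 between HSPA9 and HSP90AB1 (0.79) and 0.61 between HSP90AA1 and HSP90AB1 (0.59). With IRF4, r was 0.85 for HSPA9, 0.76 for HSP90AA1 and 0.69 for HSP90AB1. Of 1700 other named genes measured on all 13 arrays, those with the highest r to the mean of the 3 genes were CSE1L (0.98), HSP90B1 (0.97), CCT3 (0.97), COPS5 (0.96) and HDAC2 (0.96), and those with the lowest were VAC14 (-0.95), NUDT1 (-0.93), PEX6 (-0.91), IKBKE (-0.89) and PML (-0.89). HSP90B1 is the HSP90 of the endoplasmic reticulum, and CCT3 is a subunit of the ring that folds actin and tubulin.

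The other chaperones of the cell were read from lists of genes, with features for only part of each list. Beside the counts below, 46.2% of all genes tested lay below 0 at days 2-3, 47.2% at days 4-5 and 48.9% in H929. At days 2-3 all 3 measured genes of the cytosolic ring and its helper prefoldin lay below 0 (VBP1 -1.47, CCT3 -0.90 and CCT8 -0.89; median -0.90), and at days 4-5 all 3 again, nearer to 0 (median -0.16). In H929 they lay between -0.93 and -0.66. Like HSP90AA1, these genes were lower at days 2-3 than at days 4-5 without passing in either window (lowest limma adjusted p = 0.0764, for VBP1).

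The co-chaperones that hand clients to HSP70 and HSP90 had a median of -0.16 at days 2-3, with 7 of 11 measured genes below 0, and -0.18 at days 4-5, with 8 of 11. None passed in KMS12. By the values over both windows, DNAJC2 (-1.10), which works on the ribosome, and PTGES3 (-0.79), the HSP90 co-chaperone p23, were lowest, and BAG2 (0.25) and DNAJC8 (1.30) highest. In H929, PTGES3 lay below its control (log2 ratio -1.51, SE 0.31, limma adjusted p = 0.029), the 1 gene of 11 to pass there, where 3.08% of all genes passed as lower. It did not pass with the H929 arrays alone, a fit in which 0 of 3796 genes did.

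Of the other cytosolic HSP70 and small heat shock proteins, 2 of 18 listed were measured. These were HSPA1A, which stress induces, and HSPA1L, and both can share signal with near-identical copies. They stood at 0.49 and 0.33 at days 2-3 and at -0.53 and 0.01 at days 4-5. Over both windows they were near 0 (-0.02 and 0.17), and neither passed. Of the heat shock factors and their partners, 2 of 5 were measured, and none of the factors themselves (HSF1, HSF2 and HSF4) was. HSBP1, a protein that binds heat shock factor 1, stood at -0.05 over both windows, and HMGB1, a chromatin protein, at -0.54. Neither passed.

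Around HSPA9 in the mitochondrion, 9 of 33 listed chaperones, import subunits and proteases were measured. At days 2-3 6 of 9 lay below 0 (median -0.27) and at days 4-5 7 of 9 did (median -0.33), none passing. Over both windows YME1L1 (-0.96), a protease of the inner membrane, and TOMM34 (-0.46), an import co-chaperone, were lowest, and TRAP1 (0.19), the mitochondrial HSP90, and SPG7 (0.45), another inner membrane protease, highest. In H929, where HSPA9 lay below its control, 4 of 8 of these genes lay below 0 with a median of 0.10. YME1L1, the lowest of the list in KMS12, had no value in H929 and is not among the 8.

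The endoplasmic reticulum chaperones, which fold secreted proteins, were lower with a median of -0.59 at days 2-3 (8 of 10 genes below 0) and -0.21 at days 4-5 (7 of 10), none passing. HSP90B1 (-1.22) and DNAJC10 (-1.04), a reductase, were lowest over both windows, and PDIA3 (0.02) and CRELD2 (0.36) highest. In H929, 3 of 10 passed as lower, HSP90B1 (-1.42), HSPA5 (-1.27), the HSP70 of the endoplasmic reticulum, and PDIA4 (-0.87), a disulfide isomerase, with limma adjusted p of 0.0396, 0.0403 and 0.0366, beside the 3.08% of all genes called lower. In that line HSP70 genes of the mitochondrion (HSPA9) and of the endoplasmic reticulum (HSPA5) thus both passed as lower than control. The cytosolic HSPA1A (0.15) did not pass, and HSPA1L, measured on repeat 2 alone, stood at -0.06. The difference between these genes was not tested. The calls in H929 rested on the spread shared with the other groups. With the H929 arrays alone 0 of 3796 genes passed in limma, and with no filter on missing values 0.0694% of all genes did.

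**Figure D4:**
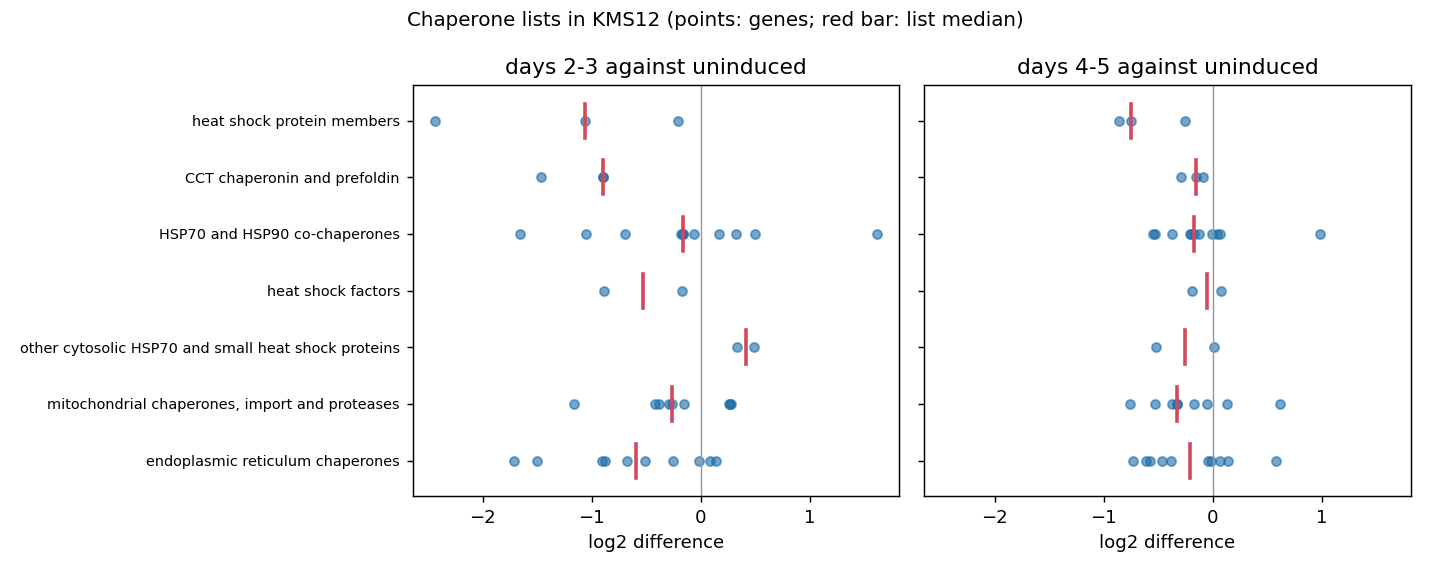
Log2 difference (horizontal axis, same scale in both panels) of each measured gene (points) of the heat shock proteins and of 6 other chaperone lists in KMS12 at days 2-3 (left) and days 4-5 (right) against uninduced; red bars are list medians. The heat shock proteins have a median of -1.06 at days 2-3 and -0.75 at days 4-5, and the list of the cytosolic ring and prefoldin goes from -0.90 to -0.16. The points of the list named heat shock factors are HSBP1 and HMGB1 alone.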

How the data were processed

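The authors deposited 1 table of log2 ratios, Cy5 over Cy3, for 15246 features on 13 two-colour arrays, with the dyes per the labels. The logarithm's base, background correction, normalization and rule for blank values: not given in the sources used here. Values from -9.78 to 7.51 were taken as log2. Dyes were not swapped, and intensities were not used. The lowest correlation between arrays was -0.33 (series 2046 uninduced and SKMM1), whose conditions differ, and the stated direction was kept. Deposited medians lay between -0.076 and 0.012.

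Features were named from the platform annotation, updated through the gene identifier to RefSeq symbols (10128 of 10169 named features matched). Features measured on at least 10 arrays and on 2 of 3 in each KMS12 window (6879) were kept, each array was centred on their median, and features of a gene were averaged. Uncentred, the median feature moves by -0.20 at days 2-3 and -0.16 at days 4-5 against uninduced, so differences are relative to it. Groups were fitted together with limma 3.58.1 in R 4.3.3 (lmFit, eBayes, two-sided, Benjamini-Hochberg over all genes tested, threshold 0.05), and hairpin 2046 across lines in a fit of its own with H929 repeats averaged. The code was tested on simulated data.

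Series names pair KMS12 arrays by culture. Between uninduced and days 2-3, deviations from the group means correlated within series at 0.16, 0.31 and 0.22 (series 1332, 1332b and 2046). Between uninduced and days 4-5 they correlated at 0.25, 0.13 and 0.09. The main fits did not use this pairing. The paired permutations are given with the HSP90 genes, and the fits with the series as a block are in the last section.

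The genes and lists were chosen with earlier results of these data known. The 8 heat shock genes, IRF4, the extreme genes of each chaperone list over both windows, and the 5 most and least alike profiles are named by rule.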

Additional observations from a re-analysis of the deposited data

How the results depend on the processing

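With the culture series as a replicate block no call changed: HSP90AA1 stood at -2.44 and HSPA9 at -1.06 at days 2-3, each with a limma adjusted p of 0.077, and 0 of 4664 genes passed. Among processing choices, 2 of 3 heat shock genes passed at days 2-3 with no centring, with features on all 13 arrays and against 0, where 7.17%, 7.53% and 19.1% of all genes did. Against 0, 2 passed over both windows, with 9.62% of all genes. In H929, 0 in place of 1 passed with no filter (0.0694% of all genes) and with its own arrays alone (0%). Leaving out 1 array moved the number called between 0 and 2 at days 2-3, between 0 and 1 over both windows and between 0 and 1 between the windows, each highest without the series 2046 array at day 2 (13.8%, 1.8% and 7.61% of all genes called). For hairpin 2046 across lines it was between 0 and 2, highest without KMS12 (17.9%), and in H929 it was 0 without either repeat (0.125% and 0.433%). The median at days 4-5 against uninduced was -1.02 after quantile normalization and -0.17 against 0, and between -1.01 and -0.37 with 1 array left out (-0.37 without the series 2046 uninduced array). The median between the windows turned to -0.077 after quantile normalization and ranged from -0.062 to 0.364 with 1 array left out. Signs also turned for HSP90AB1, to 0.002 between the windows with no centring, where leaving out 1 array gave -0.113 to 0.027, and on the uninduced arrays, where it gave -0.012 to 0.407, and for HSPA9 between the windows, to -0.182 after quantile normalization and to -0.062 at the lowest with 1 array left out. The causes were not tested. Signal over background was not used here, so how brightness limits these values is unknown.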

Other observations

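A feature annotated to HSPA8P14, a pseudogene of HSPA8, was singled out after the gene search and is no measure of HSPA8 itself, although a cDNA of either may bind mRNA of the other. It had values on 7 arrays: -0.05, 0.21 and 0.24 in series 1332b uninduced and at days 2 and 4, -0.88, -0.34 and 0.42 in series 2046 at the same times, and 0.66 in H929 repeat 1. In both series it was higher at day 4 than uninduced, where HSPA9 was lower. Features measured on 1 to 9 arrays, as this one was, had uncentred medians that were also higher at day 4 than uninduced. Uninduced and at days 2 and 4 they were -0.05, 0.01 and 0.11 in series 1332b. In series 2046 they were -0.41, 0.17 and -0.05, with day 2 the highest. The contrast with HSPA9 was not tested.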
